A study of Mus musculus with 20 samples.

Results

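Bdkrb1 and Bdkrb2, the kinin receptor genes, were examined together with Agtr1a, Agt and Ace of the angiotensin system and Edn1, Ednra and Ednrb of the endothelin system. These 8 vasoactive receptor, peptide and enzyme genes, of 51826 genes in the count table, were followed in 20 RNA-seq libraries of cultured mouse renal myofibroblasts. They were chosen by their CPM per library and by the higher Bdkrb2 level seen in TGFb1-treated WWP2-/- than in treated WT cells, so the levels of all 8 genes in that contrast are given as a description with no test. All 8 passed the filter on low counts.

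The 4 groups held 5 libraries each: untreated WT, TGFb1-treated WT, untreated WWP2-/- and TGFb1-treated WWP2-/- cells. WWP2-/- cells carry a germline loss of Wwp2, a ubiquitin ligase, and WT cells came from the same C57BL/6J colony, bred from heterozygous pairs. The cultures were outgrowths of minced kidney used at passage 2, and per the study's methods the treated cells received human TGFb1 at 5 ng/µl for 72 h. The sex and age of the donor mice are not given in the sources used here. The study's general methods treat a plotted value as 1 mouse or its cells by default, but do not speak of these libraries, so p-values measure the spread between these libraries, which may be partly technical.

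Kinins are cut from kininogens and act through a constitutive receptor, encoded by Bdkrb2, and a receptor that is usually low until injury, encoded by Bdkrb1. Angiotensin II is made from angiotensinogen by renin and then angiotensin-converting enzyme, which also degrades bradykinin, so that Ace links both peptide systems. Endothelin-1 acts through the receptors of Ednra and Ednrb, and all 5 receptor genes here encode G protein-coupled receptors known to act on contraction, growth or matrix production of kidney stromal and vascular cells.

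Library totals were between 47520759 and 73063697 counts, and levels are given as CPM, the counts scaled to a common library total. Wwp2 was between 46.7 and 61.6 CPM in the WT libraries and between 15.5 and 23.97 CPM in the WWP2-/- libraries, so each library matched its labelled genotype, with Wwp2 reads remaining in the WWP2-/- cells. Xist, expressed from the inactive X chromosome, was present without Y-linked transcripts in 6 libraries, Y-linked transcripts were present without Xist in 9, and both were present in 5, with 1 CPM taken as present. Genotype and this mix moved together: 8 WT libraries but 3 WWP2-/- libraries held Xist. Of the latter, untreated replicate 3 and TGFb1-treated replicate 1 held no Y-linked transcripts, and these stood apart from the rest of their groups. Their level of Acta2, the smooth muscle actin of myofibroblasts, was 39.7 and 49.0 CPM, against at least 1459 CPM in the other 8 WWP2-/- libraries. Pdgfra, a fibroblast receptor gene, was 95.4 and 102 CPM in them, 15.2 CPM in untreated replicate 1, and at most 1.91 CPM in the other 7 WWP2-/- libraries. The sum of 10 fibroblast markers was the lowest of its group in both, at 4382 and 5117 CPM. In the 2 WT libraries without Xist, untreated replicate 4 and TGFb1-treated replicate 3, Pdgfra was 0.594 and 0.673 CPM, against 61.9 to 161 CPM in the other 8 WT libraries.

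Bdkrb2, at chr12:105563226-105595237 on the plus strand of GRCm38, was high in 3 WWP2-/- libraries and at most 2.37 CPM in each of the other 17. The untreated WWP2-/- libraries held 14.2, 2.20, 76.2, 0.617 and 0.590 CPM in replicates 1 to 5. The TGFb1-treated WWP2-/- libraries held 90.1, 2.03, 1.52, 1.04 and 1.89 CPM. Thus 1 library in each WWP2-/- group carried most of the signal, with a smaller excess in untreated replicate 1. In untreated WT cells Bdkrb2 was 1.08, 1.57, 0.438, 2.37 and 0.570 CPM, and in treated WT cells it was 0.365, 0.126, 0.737, 0.0180 and 0.144 CPM. The 3 leading libraries held 91.3% of the summed Bdkrb2 CPM of all 20 libraries, and the first alone held 45.5%. All 3 were the WWP2-/- libraries with Xist, and the 7 WWP2-/- libraries without it held 0.590 to 2.20 CPM with a median of 1.52 CPM. The 2 WT libraries without Xist held 0.737 and 2.37 CPM, the highest of their groups, and the 8 WT libraries with Xist had a median of 0.401 CPM. Within the libraries without Xist the 2 genotypes therefore overlapped in Bdkrb2 level when both treatments were pooled. By treatment, the 1 untreated WT library, at 2.37 CPM, was above the WWP2-/- range of 0.590 to 2.20 CPM. The 1 treated WT library, at 0.737 CPM, was below the WWP2-/- range of 1.04 to 2.03 CPM. Within the libraries with Xist the lowest WWP2-/- value, 14.2 CPM, was above the highest WT value, 1.57 CPM.

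**Figure D1:**
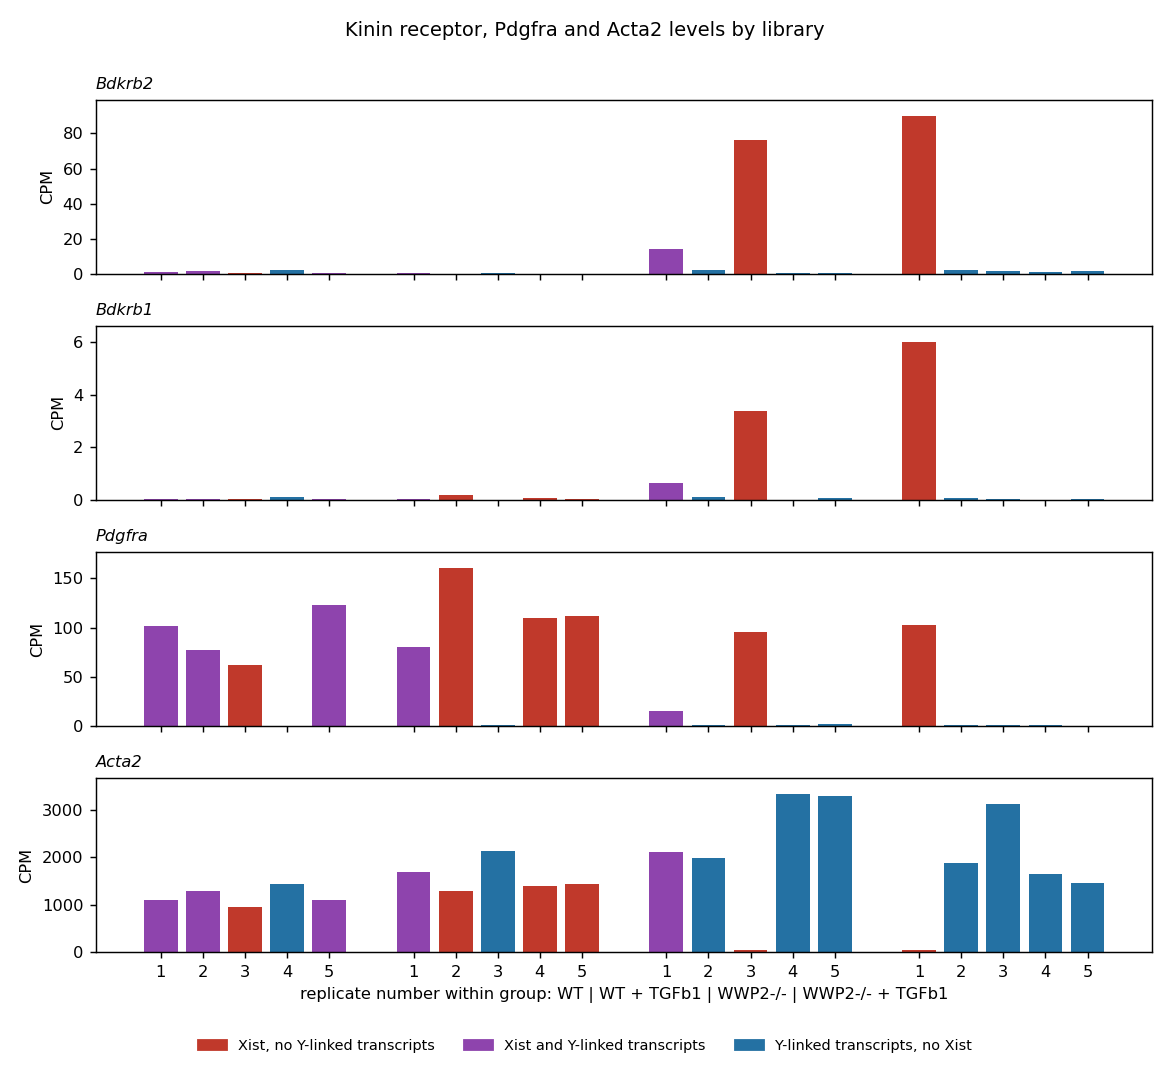
Bars give the level (CPM, axes from 0) of Bdkrb2, Bdkrb1, Pdgfra and Acta2 in each of the 20 libraries, ordered by group and replicate and coloured by whether Xist and Y-linked transcripts were present at 1 CPM or more. Bdkrb2 reached 76.2 CPM in untreated WWP2-/- replicate 3 and 90.1 CPM in treated WWP2-/- replicate 1, the same 2 libraries in which Acta2 was 39.7 and 49.0 CPM.

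Between treated genotypes, the contrast for which Bdkrb2 was chosen, all 5 WWP2-/- libraries were above all 5 WT libraries, and the fitted log2 fold change was 6.13. Without treated WWP2-/- replicate 1, the fitted size was 2.46 and the remaining WWP2-/- values of 1.04 to 2.03 CPM were still above the WT maximum of 0.737 CPM. Bdkrb2 and Ace were the 2 of 8 members whose treated groups did not overlap, beside 5.53% of all genes tested. In untreated cells, WWP2-/- libraries averaged 18.8 ± 32.6 CPM (SD, n = 5), against a WT mean of 1.21 ± 0.791 CPM. The choice of genes also read these libraries, so the tests of Bdkrb2 and of the other members in them are no independent support. The groups overlapped, and the difference did not pass edgeR's quasi-likelihood test, with a log2 fold change of 3.96 ± 1.49 (SE) and a Benjamini-Hochberg adjusted p of 0.235. DESeq2's Wald test gave an adjusted p of 0.0335, and without untreated WWP2-/- replicate 3 the edgeR log2 fold change was 1.81. TGFb1 itself left the fitted Bdkrb2 level 2.05 log2 units lower in WT cells and 0.12 higher in WWP2-/- cells, values given without a test.

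The start region of Bdkrb2 is shown because its uneven level across libraries prompted the choice of genes, and those of Ace and Ednra because these 2 genes ran the other way across the libraries. RefSeq windows of 300 bases on GRCm38.p6, from 250 bases before to 50 after a start, were matched for 6 of the 8 genes, and none was matched for Bdkrb1 or Agtr1a. Both strands were searched for TATAAA, the letters of a TATA box, and for CAGAC, those of a Smad-binding element. The AP-1 site was searched by its letters TGANTCA. The E-box was read as CANNTG and, separately, the GC box as GGGCGG. Capitals mark every match. The windows are chr12:105562922-105563221 (plus strand) for Bdkrb2, chr11:105967698-105967997 (plus strand) for the first Ace start and chr8:77724403-77724702 (minus strand) for Ednra, each printed in the direction of transcription.
Bdkrb2: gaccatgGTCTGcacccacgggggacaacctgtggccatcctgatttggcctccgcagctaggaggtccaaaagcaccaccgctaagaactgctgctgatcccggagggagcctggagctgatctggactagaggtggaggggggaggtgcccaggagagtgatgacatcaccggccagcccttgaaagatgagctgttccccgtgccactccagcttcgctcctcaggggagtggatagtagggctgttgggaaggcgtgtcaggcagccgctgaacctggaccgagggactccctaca
Ace: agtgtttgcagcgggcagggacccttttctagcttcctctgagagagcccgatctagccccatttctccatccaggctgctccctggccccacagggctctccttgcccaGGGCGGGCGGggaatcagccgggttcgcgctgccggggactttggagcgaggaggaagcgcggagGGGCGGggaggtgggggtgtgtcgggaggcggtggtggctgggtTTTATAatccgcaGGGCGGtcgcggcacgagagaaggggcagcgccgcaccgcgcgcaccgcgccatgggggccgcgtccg
Ednra: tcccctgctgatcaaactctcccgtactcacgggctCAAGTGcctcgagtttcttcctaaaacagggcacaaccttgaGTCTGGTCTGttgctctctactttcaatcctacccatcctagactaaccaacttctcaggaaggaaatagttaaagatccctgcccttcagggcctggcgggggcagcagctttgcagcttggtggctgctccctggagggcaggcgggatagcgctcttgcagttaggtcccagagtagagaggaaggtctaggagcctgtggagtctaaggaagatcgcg

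The Bdkrb2 window held 1 match, the Smad-binding letters at base 8, and its GC content was 61.7%. The first Ace window held the TATA letters on the opposite strand at base 220 and 4 GC boxes, of which 2 overlap in 1 run of capitals. Ednra held 2 adjacent Smad-binding matches at bases 79 and 84 and an E-box at base 37. Among the windows not printed, Edn1 and Ednrb held 2 Smad-binding matches each, and Agt held a TATA box at base 221 and an E-box. Of 32851 mouse windows of this length, 49.6% held the Smad-binding letters, 72.3% an E-box, 35.7% a GC box, 13.6% the TATA letters and 7.81% the AP-1 letters. No window of the 6 genes held the AP-1 letters. These matches describe the letters of the windows only.

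Bdkrb1, at chr12:105603085-105605428 on the same strand and 7847 bases beyond the end of Bdkrb2, had its 3 highest values in the same 3 libraries at a far lower level. Untreated WWP2-/- replicates held 0.643, 0.129, 3.39, 0.0147 and 0.0908 CPM, and treated ones held 6.02, 0.0706, 0.0549, 0.0193 and 0.0325 CPM. WT libraries held 0 to 0.180 CPM, which is at most 10 counts, and 1 of them, treated replicate 3, had no count, where 0 counts allow up to 0.0631 CPM. Outside the 3 WWP2-/- libraries with Xist, Bdkrb1 was thus close to the limit of detection in both genotypes. The 3 leading libraries held 90.4% of its summed CPM. In untreated cells the log2 fold change between genotypes was 3.75 ± 1.58 (SE) with an edgeR adjusted p of 0.282.

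The expressed neighbours of the kinin receptors varied over a narrower range. Of 13 genes of the table within 200 kb, both receptors included, 7 were tested. Atg2b, an autophagy gene 10.7 kb beyond Bdkrb1, ranged from 35.5 to 77.5 CPM, and its level was 77.5 and 70.5 CPM in the 2 WWP2-/- libraries with the highest Bdkrb2. Gskip ranged from 29.7 to 43.3 CPM, with 40.1 and 39.8 CPM in these 2 libraries. Papola, which encodes a poly(A) polymerase, ranged from 138 to 257 CPM and, like Atg2b, had its 2 highest values there, 257 and 242 CPM. The other neighbours were at most 0.256 CPM in each library.

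Agt, which encodes angiotensinogen, varied widely within both genotypes. Untreated WT libraries held 17.8, 22.8, 1.56, 17.3 and 9.12 CPM and treated WT libraries 7.91, 4.88, 15.1, 2.43 and 6.11 CPM. Untreated WWP2-/- libraries held 7.86, 55.2, 0.164, 13.1 and 12.4 CPM and treated ones 0.180, 7.87, 0.677, 25.3 and 32.5 CPM. The 2 WWP2-/- libraries with the highest Bdkrb2 had the lowest Agt of their groups, 0.164 and 0.180 CPM. No Agt contrast passed the test, and the fitted genotype difference in untreated cells was 0.28 ± 1.07 (SE) on the log2 scale.

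Ace, the peptidase that converts angiotensin I and degrades bradykinin, was lower in WWP2-/- cells. In untreated WT cells it was 15.4, 14.5, 66.6, 1.53 and 21.9 CPM, and in treated WT cells 25.1, 38.5, 7.28, 21.1 and 30.4 CPM. In untreated WWP2-/- cells it was 0.999, 3.41, 1.01, 0.191 and 0.409 CPM, and in treated ones 1.13, 1.29, 0.256, 1.43 and 1.68 CPM. The 2 WT libraries without Xist, at 1.53 and 7.28 CPM, were the lowest of their groups, and the untreated one lay within the untreated WWP2-/- range. The 2 WWP2-/- libraries that led in Bdkrb2 were within the range of their groups for Ace. In untreated cells Ace passed the test at a log2 fold change of -4.49 ± 0.88 (SE) with an edgeR adjusted p of 0.0270, and the WT mean was 19.9-fold higher. The choice of genes read Ace in these libraries too, so this call is no independent support. Between treated cells the fitted size was -4.60, given without a test.

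Agtr1a, the main angiotensin II receptor gene of the mouse, was near the limit of detection in every WWP2-/- library. Untreated WT libraries held 4.57, 3.66, 1.75, 0.0339 and 4.72 CPM, and treated WT libraries 0.883, 1.42, 0.0210, 5.26 and 1.19 CPM. Untreated WWP2-/- libraries held 0.0958, 0, 0.0617, 0.191 and 0.0908 CPM, at most 13 counts, and treated ones 0.0578 to 0.0981 CPM. Replicate 2 of the untreated WWP2-/- group had no count, where 0 counts allow up to 0.0485 CPM. The 2 WT libraries without Xist held 2 counts and 1 count, as few as the WWP2-/- libraries, and the 8 WT libraries with Xist held at least 0.883 CPM. The 3 WWP2-/- libraries with Xist held 0.0617 to 0.0981 CPM, below all 8 of these WT libraries. In untreated cells the log2 fold change was -5.08 ± 1.13 (SE) with an edgeR adjusted p of 0.0441. This call is no independent support either, since the choice of genes read these levels. Less Agtr1a or Ace RNA per cell and fewer cells that express them cannot be told apart in bulk libraries.

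Ace and Agtr1a were the 2 members called of 8 tested in untreated cells, both lower in WWP2-/-, beside 0.725% of all genes called in either direction and 0.622% called lower. At an unadjusted p under 0.05 there were 4 members, Bdkrb1 and Bdkrb2 being the other two, beside 14.9% of all genes. DESeq2 called 3, Bdkrb2 being added, beside 3.66%. Both of these counts hold Bdkrb2, which was chosen by its level over the libraries. The levels of the other members in these libraries were read in the same choice, so these calls and counts are a description. The median log2 fold change of the 8 genes was 0.02, beside 0.08 over all genes tested. Both calls were lost with the replicate number as a block, at edgeR adjusted p-values of 0.132 for Agtr1a and 0.105 for Ace, and with only the untreated groups in the fit, at 0.0972 and 0.104, where 1 gene of all tested was called in each fit. With the log2 level of Xist as a covariate, the log2 fold changes were -3.52 for Agtr1a and -3.58 for Ace, with edgeR adjusted p-values of 0.174 and 0.105. Agtr1a kept its direction but not its call when any 1 of the 10 untreated libraries was left out, other than WT replicate 4, with an edgeR adjusted p of at most 0.145. For Ace the call was kept without WWP2-/- replicate 2, WT replicate 2 or WT replicate 4, and was lost without any other untreated library, with an edgeR adjusted p of at most 0.101. Without the 2 WWP2-/- libraries that stood apart, the edgeR adjusted p was 0.0570 for Agtr1a and 0.0401 for Ace, and without the 2 WT libraries lacking Xist it was 0.000176 and 0.000687.

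**Figure D2:**
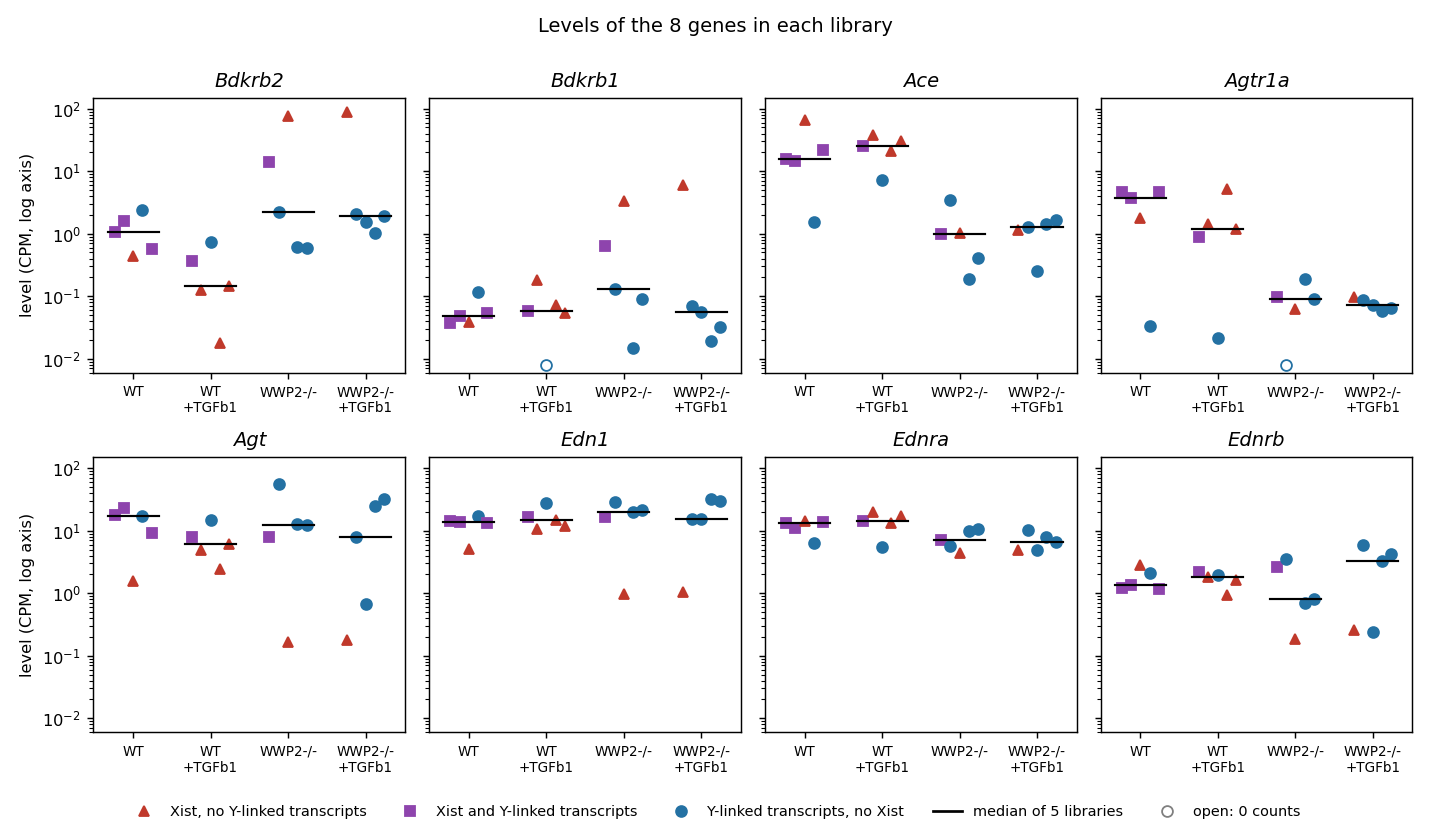
Points give the level (CPM, log axis) of each of the 8 genes in each library, by group, with shape and colour for the presence of Xist and Y-linked transcripts and a line at the median of 5. Bdkrb2 spread from 0.0180 to 90.1 CPM, and Ednra stayed between 4.42 and 20.1 CPM. Ace and Agtr1a were low in WWP2-/- libraries, and the 2 WT libraries without Xist held the lowest values of their groups. For Ace these were 1.53 CPM untreated and 7.28 CPM treated, the latter above every WWP2-/- library.

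Edn1, the gene of the contractile peptide endothelin-1, was the most abundant of the 8 genes per length, with a median of 7.18 CPM per kb of exon over the 20 libraries. Its CPM was 14.1, 13.6, 5.16, 17.3 and 13.1 in untreated WT and 16.6, 10.8, 27.7, 14.9 and 11.9 in treated WT. In untreated WWP2-/- it was 16.3, 28.8, 0.986, 19.6 and 21.6, and in treated WWP2-/- 1.03, 15.1, 15.6, 32.2 and 30.2. The 2 WWP2-/- libraries that stood apart, at 0.986 and 1.03 CPM, lay far below the other 8 WWP2-/- libraries, which held at least 15.1 CPM. No Edn1 contrast passed the test, and the genotype difference in untreated cells was 0.41 ± 0.65 (SE) on the log2 scale.

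Ednra, the receptor gene through which endothelin-1 mainly drives contraction, was present in all 20 libraries. Untreated WT cells held 13.1, 11.02, 14.1, 6.36 and 13.8 CPM, and treated WT cells 14.2, 20.1, 5.43, 13.3 and 17.4 CPM. Untreated WWP2-/- cells held 7.09, 5.71, 4.42, 10.01 and 10.6 CPM, and treated WWP2-/- cells 4.89, 10.4, 4.998, 8.06 and 6.49 CPM. Both genotypes overlapped through the 2 WT libraries without Xist, at 6.36 and 5.43 CPM, whereas the 8 WT libraries with Xist held at least 11.02 CPM and each WWP2-/- library at most 10.6 CPM. In untreated cells the log2 fold change was -0.70 ± 0.35 (SE) with an edgeR adjusted p of 0.351, and between treated cells the fitted size was -1.19.

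Ednrb, the receptor gene that also clears endothelin, was spread most widely in the WWP2-/- groups. It was 1.21, 1.37, 2.87, 2.09 and 1.18 CPM in untreated WT, and 2.23, 1.80, 1.94, 0.937 and 1.64 CPM in treated WT. In untreated WWP2-/- cells it was 2.61, 3.59, 0.185, 0.690 and 0.817 CPM, and in treated ones 0.262, 5.82, 0.238, 3.30 and 4.26 CPM. The WWP2-/- libraries thus lay on both sides of the WT range of 0.937 to 2.87 CPM. The fitted genotype difference in untreated cells was -0.25 ± 0.73 (SE) on the log2 scale.

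The balance of both endothelin receptors was read within each library as the log2 ratio of Ednra to Ednrb counts, which does not depend on library scaling. The mean was 2.78 ± 0.820 (SD, n = 5) in untreated WT, 2.98 ± 0.932 in treated WT, 2.85 ± 1.69 in untreated WWP2-/- and 2.27 ± 1.88 in treated WWP2-/- cells. Ednra had the larger count in each of the 20 libraries. The 3 contrasts tested did not differ beyond the spread between libraries. By exact two-sided permutation tests, whose smallest p is 0.00794 for 5 libraries against 5, p was 0.746 for TGFb1 in WT, 0.675 for TGFb1 in WWP2-/- and 0.921 for genotype in untreated cells. Adjusted over the 3 contrasts, p was 0.921 in each of these exact tests. WWP2-/- libraries fell at 4 log2 units or more above an equal count in untreated replicate 3 and treated replicates 1 and 3, and below 1 in untreated replicate 2 and treated replicates 2 and 5.

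**Figure D3:**
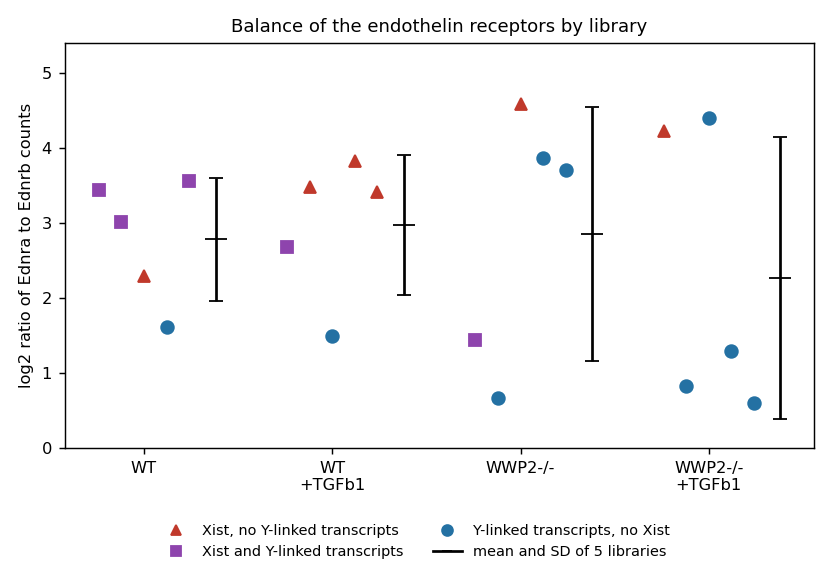
Points give the log2 ratio of Ednra to Ednrb counts in each library by group, with shape and colour for the presence of Xist and Y-linked transcripts, and the black bars give the mean and SD of 5 libraries. The WT libraries lay between 1.49 and 3.83 and the WWP2-/- libraries between 0.607 and 4.58.

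TGFb1, the growth factor used to drive myofibroblast activation, did not give a call for any of the 7 members tested. In WT cells the fitted log2 fold changes ran from -0.83 for Agt to 0.47 for Edn1, with edgeR adjusted p of at least 0.920. In WWP2-/- cells they ran from -0.41 for Agt to 0.82 for Ednrb, and the edgeR adjusted p was 0.9999 for each. None of the 7 passed an unadjusted p of 0.05 or DESeq2's Wald test in either genotype, beside 0% of all genes tested called by edgeR in both. At an unadjusted p under 0.05 there were 1397 genes (6.85%) in WT and 713 (3.49%) in WWP2-/- cells, and DESeq2 called 27 (0.132%) and 44 (0.216%). The median log2 fold change of the 7 genes was 0.08 in WT and 0.06 in WWP2-/- cells, beside 0.02 and 0.00102 over all genes tested. The difference between both TGFb1 effects passed for none of the 7 members, by edgeR, by DESeq2 or at an unadjusted p under 0.05, beside 0%, 0.049% and 6.98% of all genes tested, with fitted sizes from -0.49 for Ednra to 0.77 for Ednrb. Of 15 known TGFb1 response genes, none was called by edgeR or DESeq2 in either genotype, with 1 in WT and 2 in WWP2-/- cells at an unadjusted p under 0.05, and their median log2 fold changes were 0.35 in WT and 0.35 in WWP2-/- cells.

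**Figure D4:**
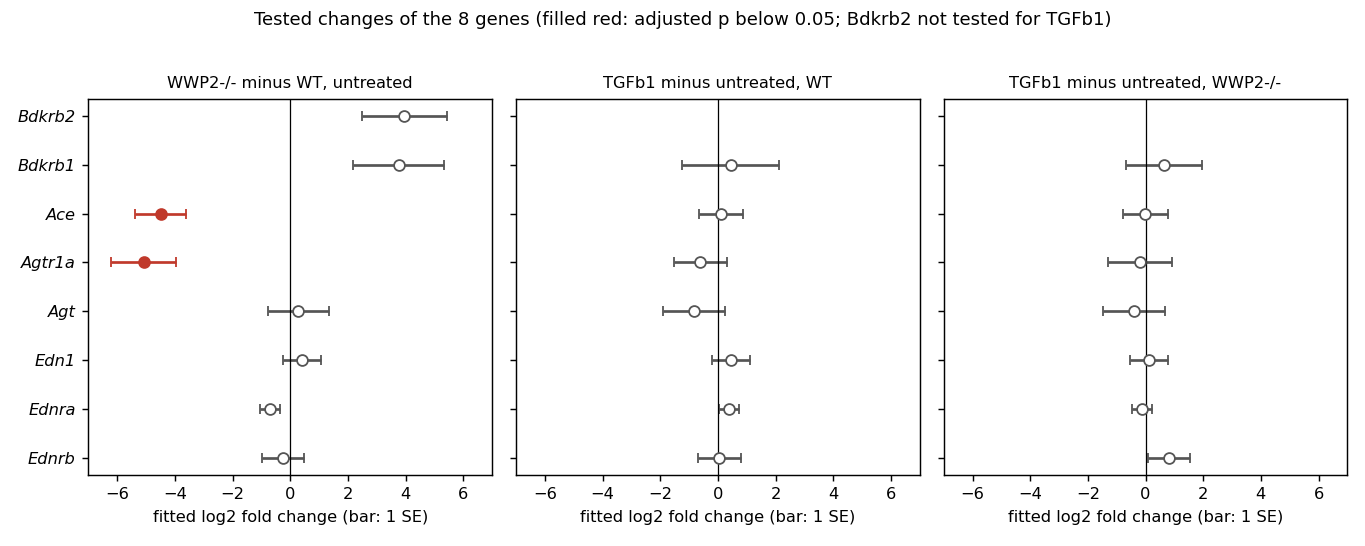
Points give the fitted log2 fold change of each gene with a bar of 1 SE on each side, for genotype in untreated cells and for TGFb1 in WT and in WWP2-/- cells, and filled red points have an edgeR adjusted p below 0.05. Ace at -4.49 and Agtr1a at -5.08 in untreated cells were the filled points, and Bdkrb2 was not tested for TGFb1.

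The fitted sizes of the other members between treated genotypes, given without a test, were -4.66 for Agtr1a, 3.95 for Bdkrb1, 0.71 for Agt, 0.51 for Ednrb and 0.07 for Edn1. The median over the 8 genes was 0.29, beside 0.05 over all genes tested.

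Genes of the same peptide systems that were not members were read from 5 lists of 90 genes, of which 74 were tested. In untreated cells 1 of 74 was called, which is 1.35% beside 0.725% of all genes. It was Tbxa2r, the thromboxane receptor, at -3.96 ± 0.76 (SE) on the log2 scale with an edgeR adjusted p of 0.0258, and 0.116 with Xist as a covariate. TGFb1 gave no edgeR or DESeq2 call among the 74 in either genotype, and neither did the interaction. At an unadjusted p under 0.05 there were 11 genes in WT and 4 in WWP2-/- cells, beside 6.85% and 3.49% of all genes. The interaction had 17, beside 6.98%. Between treated genotypes 11 of 74 were called, 10 of them lower in WWP2-/- cells, which is 14.9% beside 6.07% of all genes. Without the 2 WWP2-/- libraries that stood apart 22 of the 74 were called in treated cells and 3 in untreated cells, beside 17.2% and 1.34% of all genes. Without the 2 WT libraries lacking Xist there were 26 and 10, beside 16.5% and 5.63%.

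In the kallikrein-kinin list, edgeR called 3 of 11 tested genes lower in treated WWP2-/- cells and none higher, beside 6.07% of all genes called. DESeq2 called 3 lower and 1 higher, beside 13.1%. The list median was 0.04. Kng2, a kininogen gene, was 1.45 to 74.2 CPM with a median of 68.7 CPM in treated WT and 0.0366 to 4.78 CPM in treated WWP2-/- libraries, a log2 fold change of -4.86. Kng1, its close copy, was at -3.85, and reads of these near-identical genes may have been split between them. Serping1, which encodes the inhibitor of plasma kallikrein and complement, was 109 to 444 CPM in treated WT and 2.16 to 110 CPM in treated WWP2-/- cells, at -3.29. The edgeR adjusted p-values of Kng2, Kng1 and Serping1 were 0.0182, 0.0492 and 0.0306, and with Xist as a covariate they were 0.170, 0.198 and 0.0294. Kng1 and Kng2 were also low in the 2 WT libraries without Xist, at 0.610 to 0.644 CPM and 1.45 to 1.65 CPM.

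In the renin-angiotensin list, edgeR called 1 of 12 tested genes in treated cells, beside 6.07% of all genes, and the list median was -0.06. DESeq2 called 6, 2 higher and 4 lower, beside 13.1%. The edgeR call was Agtr2, the second angiotensin receptor gene, named after its values were seen because its mean is under 1 CPM. Agtr2 had no count in any treated WWP2-/- library and was 0 to 0.756 CPM in treated WT libraries. It was at most 0.0206 CPM in untreated WWP2-/- libraries. Agtr2 thus passed the filter only through WT libraries, and its call is no independent support. The 2 WT libraries without Xist held no Agtr2 count. Ren1, which encodes renin, had at most 3 counts in a library and was not tested. In the endothelin list, none of 4 tested genes was called by edgeR or DESeq2 in treated cells, beside 6.07% and 13.1% of all genes. At an unadjusted p under 0.05 there was 1, beside 24.7%, and the list median was 0.26. Ece1, the main endothelin-converting enzyme, was 92.0 to 247 CPM over the 20 libraries.

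Among 27 genes of Gq and G12/13 receptor signalling, all of which were tested, Grk5, a kinase that desensitises receptors, was lower in treated WWP2-/- cells at 14.7 to 17.7 CPM against 29.0 to 42.6 CPM in treated WT. Its log2 fold change was -1.37 ± 0.24 (SE) with an edgeR adjusted p of 0.00732, and 0.0323 with Xist as a covariate. The 2 WT libraries without Xist, at 14.1 CPM untreated and 29.0 CPM treated, were the lowest of their groups for Grk5. The untreated one lay below every WWP2-/- library. The list median was -0.07 and edgeR called no other gene of the 27, beside 6.07% of all genes. DESeq2 called 5 of them, 2 higher and 3 lower, beside 13.1%. Among 20 tested genes of other vasoactive peptides and receptors, edgeR called 5 lower and 1 higher, beside 6.07% of all genes, with a list median of 0.24. DESeq2 called 9 lower and 1 higher, beside 13.1%. Tbxa2r was at -4.96, and the adrenergic receptor genes Adra1b and Adra1d were at -3.65 and -2.96, with edgeR adjusted p-values of 0.00605, 0.00840 and 0.0145. Adra1d was 46.5 to 57.2 CPM in treated WT and 1.31 to 11.9 CPM in treated WWP2-/- libraries. The gene that edgeR called higher, Tacr1, the substance P receptor, was 0.327 to 0.944 CPM in treated WWP2-/- and 0 to 0.231 CPM in treated WT libraries and is named after its values were seen.

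Markers of the labelled cell type and of other kidney cells moved with these groups, and their part in the results was not tested. The summed level of 10 fibroblast markers was 11255 to 30497 CPM in treated WT and 5117 to 11984 CPM in treated WWP2-/- cells. Of the 10, 2, Col1a1 and Col1a2, were called lower, beside 6.07% of all genes called. There was 1 call with the replicate block, 0 with Xist as a covariate and 7 without the 2 WWP2-/- libraries that stood apart. The shares of all genes called were then 3.28%, 2.87% and 17.2%. Among the 15 TGFb1 response genes, edgeR called 3 between treated genotypes, 1 higher and 2 lower in WWP2-/- cells, beside 6.07% of all genes. Their list median was 0.35. The 2 lower ones were Postn and Col1a1, at -2.44 and -1.98. Of 10 endothelial markers, 2, Kdr and Tek, were called lower in treated and 1, Tek, in untreated WWP2-/- cells, beside 6.07% and 0.725% of all genes. The median log2 fold change of the 10 was 0.47 in treated and 0.07 in untreated cells. Their summed level was 66.6 to 294 CPM over all libraries. Of 9 tested mural and mesangial markers, 1, Itga8, was called lower in treated WWP2-/- cells, beside 6.07% of all genes, and the list median was 0.14. Kcnj8 and Ren1 were under 0.2 CPM in each library. The 10 macrophage markers summed to 70.7 to 459 CPM in treated WT and 88.5 to 3697 CPM in treated WWP2-/- cells, where edgeR called none and DESeq2 called 9, beside 13.1% of all genes. At an unadjusted p under 0.05 there were 10, beside 24.7% of all genes, but 2 with the replicate block and 1 with Xist as a covariate. The 11 tubular markers summed to 14.7 to 386 CPM, Slc34a1, Umod and Aqp2 being under 0.2 CPM in each library. In treated cells edgeR called none of 8 tested and DESeq2 called 2, beside 6.07% and 13.1% of all genes. At an unadjusted p under 0.05 there were 2, beside 24.7%. In the 2 WWP2-/- libraries with the highest Bdkrb2, the fibroblast sum was 4382 and 5117 CPM, the macrophage sum 95.4 and 88.5 CPM, the tubular sum 15.7 and 14.7 CPM and the mural sum 47.6 and 51.1 CPM, the lowest of their groups in each case. Their endothelial sums, 68.0 and 72.4 CPM, were the lowest of the untreated and the second lowest of the treated WWP2-/- group.

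Over the 20 libraries, the genes whose level followed that of Bdkrb2 most closely by Spearman correlation of log2 CPM were Areg, Grip1, Zfand2a, Slc7a11 and Zfyve27, at 0.96, 0.95, 0.95, 0.95 and 0.95. Areg encodes amphiregulin, a ligand of the epidermal growth factor receptor, and Slc7a11 the cystine transporter. Slc7a11 was 465 and 664 CPM in the 2 WWP2-/- libraries with the highest Bdkrb2, 98.7 CPM in untreated WWP2-/- replicate 1 and at most 54.0 CPM elsewhere. Zfand2a was 250 and 211 CPM in the same 2 libraries. Among the other members, Ednra ran most strongly against Bdkrb2 at -0.82, followed by Ace at -0.62 and Agtr1a at -0.57, and Bdkrb1 was at 0.36. Kng1, Sfrp4 and Olfr1260 were most like Ednra, at 0.97, 0.97 and 0.96. Libraries share culture makeup and genotype, so these values describe the 20 libraries only.

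Per kb of exon, the order of the medians over the 20 libraries was Edn1, Agt at 4.50, Ednra at 1.86, Ace at 0.481, Ednrb at 0.403, Bdkrb2 at 0.280, Bdkrb1 at 0.0392 and Agtr1a at 0.0348 CPM per kb. The ranges of neighbours in this order overlapped throughout, and Bdkrb2 spanned 0.00475 to 23.8 CPM per kb, so that it passed Edn1, at most 15.1 CPM per kb, in untreated WWP2-/- replicate 3 and treated WWP2-/- replicate 1. The gene models of Agtr1a, Ednra, Edn1 and Ace each overlap another model, which held at most 21 counts in a library.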

How the data were processed

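Poly-A RNA of the 20 libraries was sequenced as 150-base pairs. According to the study's methods, the authors mapped reads to GRCm38 (mm10) using the STAR aligner and summed exon reads per gene by featureCounts, tool versions being not given in the sources used here. The deposited values are whole-number counts per gene, without normalization, and strand use in counting is not stated. The 8 genes, the gene lists and the tests were chosen with earlier results of these data known.

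Counts of 51826 genes were read as deposited, and groups came from the sample labels. The filter asked for 5 counts or more in 5 libraries or more, as in the study, and kept 20407 genes that held 99.98% of all counts. One edgeR 4.0.16 quasi-likelihood fit (R 4.3.3, TMM) covered all 4 groups, with Benjamini-Hochberg adjustment over all genes tested and a threshold of 0.05. Its script was tested on simulated data. Alternatives were DESeq2 1.42.0, its size factors, no filter, a replicate block, Xist as a covariate, fewer groups, and leaving out libraries. A pair of exclusions by Xist and Y-linked transcripts was chosen after the data were seen. No 2 libraries were identical. Gene names, positions and exon lengths came from GENCODE M21, which named 51633 genes. Exact tests used SciPy 1.17.1. For 0 counts the upper limit given is 3 counts and covers counting error only.

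Named genes were the 8 members, Wwp2, up to 3 genes per list with the lowest adjusted p past the threshold and a mean of at least 1 CPM, the 5 genes most like Bdkrb2 and the 3 most like Ednra in log2(CPM + 0.5), and neighbours of the kinin receptors. The lists covered kallikrein-kinin, renin-angiotensin, endothelin, receptor signalling, other vasoactive and TGFb1 response genes, and markers of 5 cell types. A result for 1 gene of these lists is not reported here.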

Additional observations from a re-analysis of the deposited data

Results flagged for a closer look

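Of 36 sets of 5 libraries examined by Dixon's test at the 95% level, 32 of them sets of a member in a group, 8 had a library far from the other 4. The chance rate of about 1 in 20 sets assumes normally distributed values, which was not tested for CPM. The genes were also chosen by their CPM per library, so the flags are a description only. In untreated WWP2-/- replicate 3, Bdkrb2 was 76.2 CPM with the next library at 14.2 CPM, and Bdkrb1 was 3.39 CPM with the next at 0.643 CPM. In treated WWP2-/- replicate 1, Bdkrb2 was 90.1 CPM with the next library at 2.03 CPM, and Bdkrb1 was 6.02 CPM with the next at 0.0706 CPM. These 4 results fell in the 2 WWP2-/- libraries with Xist and without Y-linked transcripts. In untreated WWP2-/- replicate 2, Agt was 55.2 CPM with the next library at 13.1 CPM, and Ace was 3.41 CPM with the next at 1.01 CPM. Agtr1a in treated WT replicate 4 was 5.26 CPM with the next library at 1.42 CPM. Bdkrb1 in untreated WT replicate 4 was 0.119 CPM, from 7 counts, with the next library at 0.0534 CPM.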

How the results depend on the processing

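The 2 members called between genotypes in untreated cells fell to 0 with the replicate block, with Xist as a covariate and with only the groups compared in the fit, to 1 without both WWP2-/- libraries that stood apart, and to between 0 and 2 when 1 library was left out. Called pathway genes in untreated cells were 9 of 74 by DESeq2, 0 with the block and 2 with Xist, beside 3.66%, 0.0049% and 0.387% of all genes. In treated cells they were 25, 5 and 7, beside 13.1%, 3.28% and 2.87%. The genotype size of Bdkrb2 in treated cells was 2.46 to 6.79 when 1 library was left out and 2.46 without both libraries. The log2 ratio of Ednra to Ednrb in untreated genotypes turned to -0.36 without both WWP2-/- libraries and to -0.23 without both WT libraries lacking Xist, and was -0.36 to 0.61 without single libraries; for TGFb1 in WT it was -0.10 to 0.57.

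Other direction changes were in contrasts past no threshold. With the block they were, for TGFb1 in WT, Ednrb at -0.082 and Agt at 0.050, for TGFb1 in WWP2-/-, Bdkrb1 at -0.51, Agtr1a at 0.057 and Ace at 0.44, for untreated genotype, Agt at -0.12, and for the interaction, Bdkrb1 at -1.02, Agt at -0.35 and Ace at 0.093. With Xist they were Bdkrb1 at -0.26 for TGFb1 in WT, Edn1 at -0.26 and Ace at 0.11 for TGFb1 in WWP2-/-, and Agt at -1.89 and Edn1 at -0.79 for untreated genotype. Ace for TGFb1 in WWP2-/- was 0.012 by DESeq2, 0.014 with its size factors, 0.0048 without the filter and 0.0072 with only the groups compared. Without both WWP2-/- libraries Bdkrb1 was -2.20 for TGFb1 in WWP2-/- and -2.63 for the interaction, which was -0.48 without both WT libraries. Without single libraries the ranges for TGFb1 in WT were -0.20 to 0.79 for Bdkrb1, -0.057 to 0.35 for Ednrb and -0.22 to 0.99 for Ace. For TGFb1 in WWP2-/- they were -4.15 to 2.62 for Bdkrb1, -0.49 to 0.33 for Agtr1a, -0.28 to 0.072 for Ednra, -1.02 to 0.59 for Agt, -0.18 to 0.43 for Edn1 and -0.26 to 0.84 for Ace. For untreated genotype they were -0.80 to 0.029 for Ednrb and -0.75 to 0.58 for Agt, and for the interaction -4.59 to 2.18 for Bdkrb1, -0.20 to 1.45 for Agt and -0.99 to 0.77 for Ace. The cause of these changes was not tested.

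Same-numbered libraries deviated together (r over 0.1) in 4 of 5 pairs between untreated genotypes, 2 of 5 between treated genotypes, 2 of 5 in WT and 3 of 5 in WWP2-/- cells. Between untreated genotypes 3 of 5 libraries correlated best with their own number. Since not every pair passed, the numbers were not taken to pair the libraries, and the replicate block is an alternative. Over all genes, calls in untreated cells were 148, and 747 by DESeq2, 79 with Xist, 1 with the block and 1 with only the groups compared. In treated cells they were 1238, and 2672, 585, 670 and 569, with 790 without the filter. Without both WWP2-/- libraries they were 271 and 3480, and without both WT libraries 1136 and 3322. Depth limits Bdkrb1 and Agtr1a most, which held at most 10 and 13 counts in each library of the low genotype.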
